A study of Mus musculus with 4 samples.

Results

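The genes described here are 43 members of the program run by the transcription factor ATF4, chosen by name. They are ATF4 and its partners, the kinases upstream, and targets in amino acid synthesis, amino acid transport, the folate cycle and tRNA charging. The choice was made with earlier results of these data known. Shares of members set beside all tested genes therefore describe the list and are no test of it. All 43 were found among the 55335 genes of the deposited table, each on a single line. Bulk RNA-seq of CT26, a colon carcinoma line of the mouse, gave 4 libraries. The libraries titled CT26_102_R and CT26_CTL_R are labelled FOSL2-KO with chemoradiotherapy, and those titled CT26_102 and CT26_CTL are labelled FOSL2-WT with PBS. By these labels, effects of genotype and of treatment cannot be told apart, because no library is labelled with one without the other. The titles cross the suffix R with a stem, CT26_102 or CT26_CTL, whose meaning the labels do not give. The series design mentions KD cells where the labels say KO, and no source used here gives a dose, a time or a clone. Separate cultures are not mentioned for the libraries, and the p-values below therefore cover only the variation among these 4 libraries, which may be technical. Each combination of label and stem has a single library. The SEs and p-values of the fits with both terms thus rest on how far the matched pairs disagree, not on replicates. For each gene its own pairs give 1 degree of freedom, and a prior taken over all tested genes adds 4.01. An SE is therefore not the disagreement of that gene's pairs alone.

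When amino acids run short or proteins misfold in the endoplasmic reticulum, the kinases GCN2 (Eif2ak4) and PERK (Eif2ak3) phosphorylate the initiation factor eIF2. Most translation then slows, while translation of the Atf4 mRNA increases. ATF4 binds DNA with C/EBP partners and switches on genes that make, import and charge amino acids, and genes that feed serine carbon into the folate cycle. Under lasting stress it also induces CHOP (Ddit3) and the phosphatase subunit GADD34 (Ppp1r15a), which restores translation. Much of this control acts on translation, which RNA-seq does not measure.

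Estimated depth was between 21.7 and 26.5 M reads per library, an approximate range derived from the steps between low values. FPKM, a level that allows for gene length and library size, reached 1 for between 11280 and 11904 genes. Fosl2, the gene named in the labels, was at 16.0 and 19.2 FPKM in CT26_102_R and CT26_CTL_R, against 9.35 and 12.7 FPKM in CT26_102 and CT26_CTL. The transcript thus went against the genotype labels. Within each labelled group it was lower in stem CT26_102 (16.0 against 19.2 FPKM with suffix R, 9.35 against 12.7 FPKM without). What the stem stands for was not tested, and groups are named below by their labels only. Of 10 markers of colon epithelium and carcinoma, 3 reached 1 FPKM in some library (Krt18, Krt20 and Krt8), while Epcam and Cdx2 were listed at 0 in all 4. The labels call the cells colon adenocarcinoma in one field and mesenchymal in another. All 5 mesenchymal markers reached 1 FPKM, with Vim between 503 and 782 FPKM. Markers of T and NK cells and of endothelial cells stayed under 1 FPKM. Of 7 rows of myeloid markers 3 reached 1 FPKM (Lyz2, Cd14 and Csf1r). The sum over all 7 rows was 90.5 and 43.4 FPKM in CT26_102_R and CT26_CTL_R, against 28.8 and 36.6 FPKM in CT26_102 and CT26_CTL. Ptprc, on that list and a marker of all leukocytes, was at most 0.0880 FPKM. The part of the myeloid markers in the results was not tested.

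ATF4 targets are often recognised by a short promoter element, so the promoters of the members were read for it. RefSeq promoters (build GRCm38.p6, 250 bases before to 50 after the start site) matched 36 of the 43 members by symbol. The core of the C/EBP-ATF response element, TGATGNAA or its reverse complement TTNCATCA, was searched on both strands. It was present for 12 of the 36 members and for 4.51% of all 27025 genes with a promoter in the table. The narrower amino acid response element core, TGATGCAA or TTGCATCA, which is contained in the first, was present for 8 members and for 1.03% of all genes. The members were chosen by name for the ATF4 program and most are known ATF4 targets, so these shares describe the list and are no test of it. Of the 12 members with the core, 4 passed the test in a comparison given below. Between the labelled groups 1 of the 12 fell, against 5 of 22 tested members without the core and 5.32% of all tested genes. Between the stems 3 of the 12 were lower, against 7 of the 22 and 9.44% of all tested genes. In each comparison 0 of the 12 and 1 of the 22 were higher. Whether the core goes with the calls was not tested. The promoters of the 4, Chac1, Asns, Got1 and Pck2, are shown from 5′ to 3′ with the core in capitals.
Chac1, chr2:119350992-119351291, plus strand: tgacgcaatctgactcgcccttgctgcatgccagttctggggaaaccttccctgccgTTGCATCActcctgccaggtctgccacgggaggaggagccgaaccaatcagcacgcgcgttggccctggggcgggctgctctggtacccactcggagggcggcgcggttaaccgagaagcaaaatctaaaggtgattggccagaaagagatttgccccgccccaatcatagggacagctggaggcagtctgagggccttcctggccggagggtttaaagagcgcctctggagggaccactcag
Asns, chr6:7693160-7693459, minus strand: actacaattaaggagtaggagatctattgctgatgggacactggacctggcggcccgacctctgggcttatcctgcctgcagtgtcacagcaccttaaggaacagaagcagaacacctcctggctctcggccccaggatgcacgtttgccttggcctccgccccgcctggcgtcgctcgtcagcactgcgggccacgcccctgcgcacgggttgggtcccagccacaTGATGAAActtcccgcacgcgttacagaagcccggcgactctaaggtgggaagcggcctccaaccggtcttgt
Got1, chr19:43524556-43524855, minus strand: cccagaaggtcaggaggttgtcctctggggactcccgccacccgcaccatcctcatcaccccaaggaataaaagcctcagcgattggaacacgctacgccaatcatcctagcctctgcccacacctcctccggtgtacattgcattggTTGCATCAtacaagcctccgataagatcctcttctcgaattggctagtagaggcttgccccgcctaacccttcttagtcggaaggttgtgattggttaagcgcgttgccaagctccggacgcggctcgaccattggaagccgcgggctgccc
Pck2, chr14:55540016-55540315, plus strand: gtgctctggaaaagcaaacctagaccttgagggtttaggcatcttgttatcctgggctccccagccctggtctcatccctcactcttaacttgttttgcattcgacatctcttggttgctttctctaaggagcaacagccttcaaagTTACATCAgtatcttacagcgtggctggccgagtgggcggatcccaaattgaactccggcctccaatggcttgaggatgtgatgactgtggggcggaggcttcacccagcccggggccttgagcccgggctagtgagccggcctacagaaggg
Counted from the start site, the first base of the core lay at -193 in Chac1, -23 in Asns, -102 in Got1 and -103 in Pck2. The core was also found in the promoters of Nupr1, Trib3, Pycr1, Slc1a4, Aars, Gars, Yars and Vldlr. A match describes the letters alone and does not show that ATF4 was bound.

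Across the program, the library titled CT26_CTL stood highest. A filter of at least 1 FPKM in at least 2 libraries was passed by 40 members, and the tests below use these. Of the 40, 28 had their highest FPKM in CT26_CTL, whereas 19.9% of all 11955 tested genes did. The highest value lay in CT26_102_R for 3 members, in CT26_102 for 4 and in CT26_CTL_R for 5. In CT26_CTL the lowest value of the 4 libraries was found for 1 member, Eif2ak3. All 4 libraries, CT26_CTL among them, enter both comparisons, which are therefore not independent. For each comparison the median over the members without CT26_CTL is given below.

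**Figure D1:**
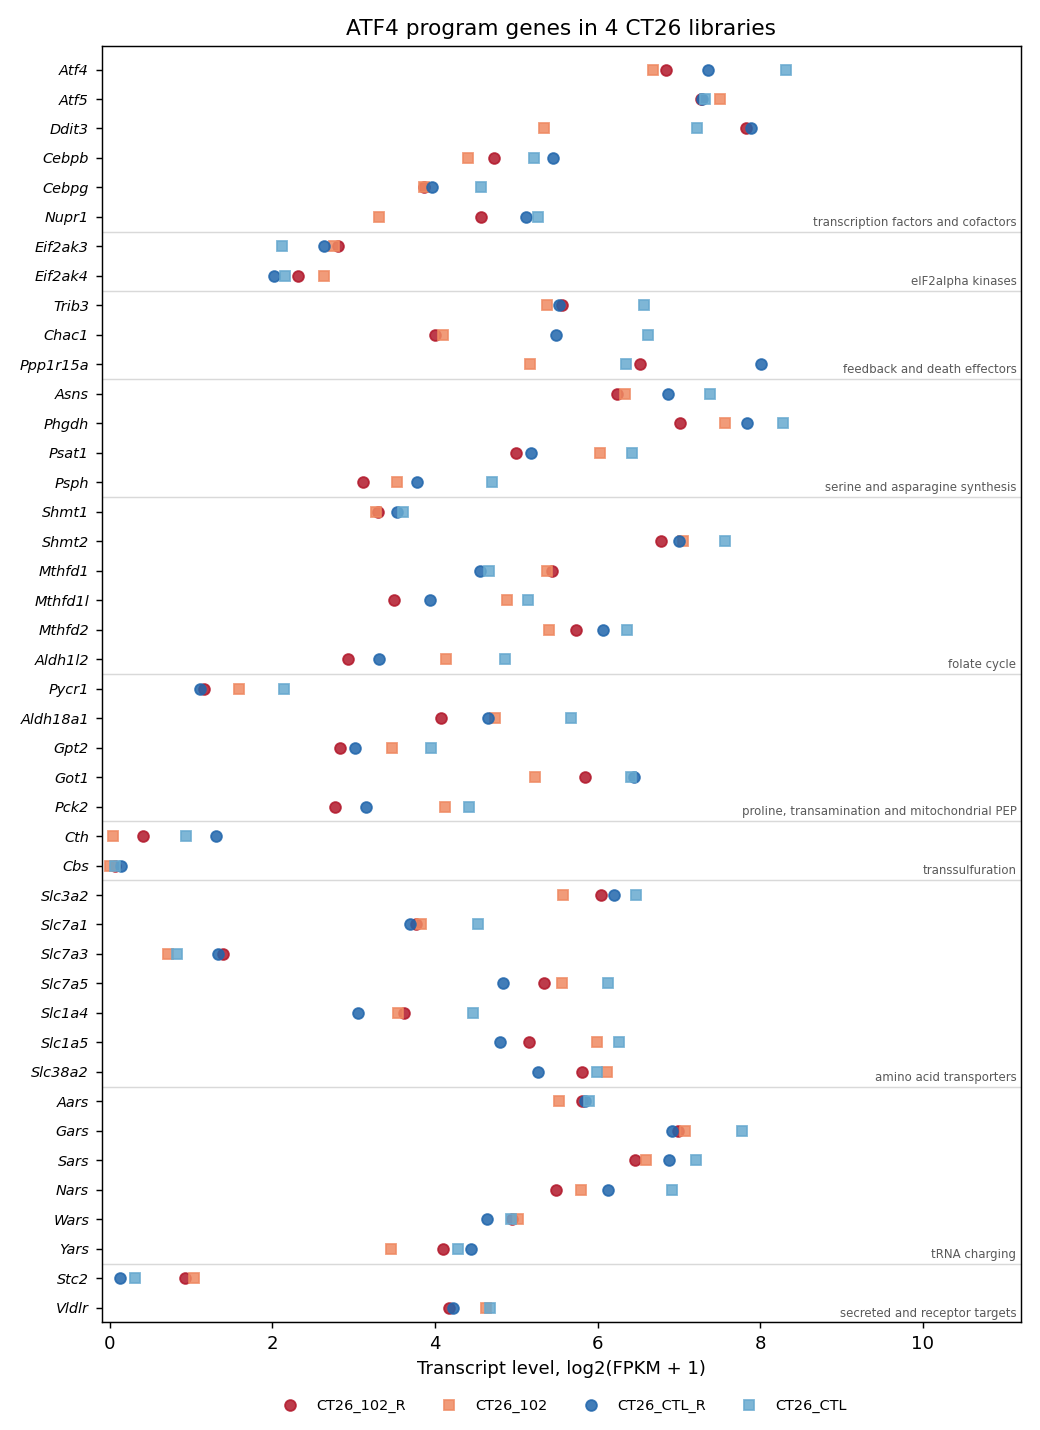
Transcript levels of all 43 members in each library, as log2(FPKM + 1), grouped by role. Circles are libraries with suffix R and squares those without. The light blue square of CT26_CTL is the rightmost point for 28 of the 40 tested members.

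**Figure D2:**
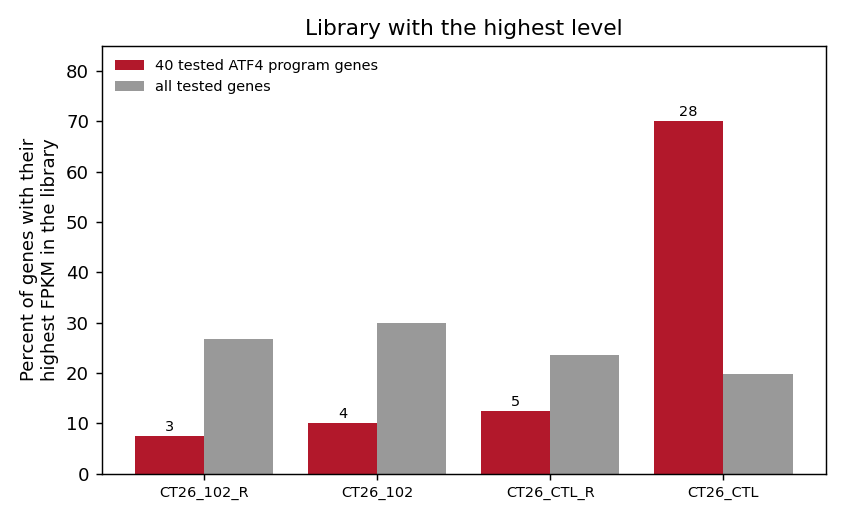
Percent of genes whose highest FPKM lay in each library, for the 40 tested members (red, with their number above the bar) and for all tested genes (grey). CT26_CTL held the highest value of 28 members.

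Between the labelled groups, enzymes of amino acid synthesis and of the mitochondrial folate cycle were lower in the libraries labelled FOSL2-KO and chemoradiotherapy, whereas Ppp1r15a was higher. In limma on log2(FPKM + 1) with the stem as a second term, 8 of 40 members fell, against 5.32% of all tested genes that fell, and 1 rose, against 7.57% that rose. Of the 15 tested enzymes 7 fell and 0 rose, and of the 11 stress factors 0 fell and 1 rose. The median log2 difference was -0.40 over all members, -0.67 over enzymes and -0.14 over stress factors, against 0.00425 over all tested genes. In bulk RNA, a lower level per cell and fewer cells that express a gene cannot be told apart. In the fit of the labelled group alone, without the stem, 0 members passed the adjusted threshold, against 0.00836% of all tested genes, and 6 had an unadjusted p under 0.05. No member passed in the fit with both terms when genes of all levels were tested, where 18 had an unadjusted p under 0.05.

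In the mitochondrial folate cycle, which turns serine into formate, Aldh1l2 and Mthfd1l fell. Aldh1l2, a 10-formyltetrahydrofolate dehydrogenase that makes NADPH, was at 6.62 and 8.90 FPKM in CT26_102_R and CT26_CTL_R, against 16.5 and 28.0 FPKM in CT26_102 and CT26_CTL. Both libraries with suffix R lay below both others, by 0.402 times within stem CT26_102 and 0.318 times within stem CT26_CTL. The log2 difference was -1.37 ± 0.15 (SE of the limma fit, 2 libraries per group, adjusted p = 0.0198). Of its exonic bases 14.1% are shared with D10Wsu102e on the opposite strand, a gene at no more than 0.515 FPKM. Mthfd1l (ENSMUSG00000040675, GRCm38 chromosome 10, 3973118 to 4167081, plus strand), the synthetase that releases formate, was at 10.3 and 14.4 FPKM with suffix R, against 28.4 and 34.2 FPKM without it. Again the groups did not overlap, and the log2 difference was -1.29 ± 0.13 (adjusted p = 0.0187). The other 4 folate members did not pass. Mthfd2, the dehydrogenase between serine and formate in mitochondria, was at 52.0 and 65.8 FPKM, against 41.3 and 81.3 FPKM, so that its stems went opposite ways (adjusted p = 0.969). Shmt2, which takes the carbon from serine, was at 109 and 127 FPKM, against 131 and 188 FPKM (adjusted p = 0.0804). The cytosolic enzymes Shmt1 and Mthfd1 each had a log2 difference of -0.02. From the list of further folate genes, Aldh1l1, the cytosolic counterpart of Aldh1l2, rose to 5.14 and 1.73 FPKM, against 0.0406 and 0.0577 FPKM. Aldh1l1 passed the filter only through the libraries with suffix R, where it is high. It was 1 of 22 tested genes of that list, a share below the 7.57% of all tested genes that rose.

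Serine is made from a glycolytic intermediate by Phgdh, Psat1 and Psph in turn, and the first 2 of these fell. Psat1 (ENSMUSG00000024640, GRCm38 chromosome 19, 15904678 to 15947337, minus strand), the aminotransferase, was at 30.8 and 35.4 FPKM in CT26_102_R and CT26_CTL_R, against 64.0 and 84.8 FPKM in CT26_102 and CT26_CTL. Its log2 difference was -1.13 ± 0.12 (adjusted p = 0.0198). The change was of similar size in both stems, with ratios of 0.481 and 0.418. Phgdh, the dehydrogenase that opens the pathway, was at 129 and 227 FPKM with the suffix, against 189 and 309 FPKM without it. Here the groups overlapped, because levels in stem CT26_CTL exceeded those in stem CT26_102, and the fall shows only within stems (log2 difference -0.50 ± 0.10, adjusted p = 0.0414). Phgdh did not pass when the mean-variance trend was left out (adjusted p = 0.0729). Psph, the phosphatase of the last step, was at 7.64 and 12.7 FPKM, against 10.5 and 25.0 FPKM (adjusted p = 0.0621). Asns, which makes asparagine, was at 74.5 and 116 FPKM, against 80.04 and 166 FPKM, and did not pass (adjusted p = 0.180).

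Pck2, Gpt2 and Aldh18a1 fell among the remaining enzymes. Pck2 (ENSMUSG00000040618, GRCm38 chromosome 14, 55540266 to 55551242, plus strand), which makes phosphoenolpyruvate in mitochondria, was at 5.81 and 7.88 FPKM, against 16.4 and 20.3 FPKM (log2 difference -1.31 ± 0.13, adjusted p = 0.0180). The ratios were 0.354 in stem CT26_102 and 0.388 in stem CT26_CTL, which lie close together. Gpt2, the mitochondrial alanine aminotransferase, was at 6.11 and 7.08 FPKM with suffix R, against 10.1 and 14.5 FPKM without it (log2 difference -0.79 ± 0.15, adjusted p = 0.0385). Aldh18a1 starts proline synthesis from glutamate, and its log2 difference was -0.84 ± 0.14 (adjusted p = 0.0342). The levels of Aldh18a1 were 15.8 and 24.2 FPKM, against 25.8 and 49.8 FPKM, and both libraries with the suffix lay below both others. Pycr1, the reductase that completes proline, was at 1.23 and 1.16 FPKM, against 2.01 and 3.41 FPKM. Got1, the cytosolic aspartate aminotransferase, was at 56.2 and 86.3 FPKM, against 36.6 and 83.8 FPKM. Neither Pycr1 (adjusted p = 0.0699) nor Got1 (adjusted p = 0.226) passed.

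Among the stress factors, Ppp1r15a rose and the transcription factors did not pass. Ppp1r15a (ENSMUSG00000040435, GRCm38 chromosome 7, 45522916 to 45526268, minus strand) was at 91.0 and 257 FPKM in CT26_102_R and CT26_CTL_R, against 35.0 and 80.3 FPKM in CT26_102 and CT26_CTL. Within stems the ratios were 2.60 and 3.20, and the log2 difference was 1.51 ± 0.13 (adjusted p = 0.0167). Ddit3, the death-promoting factor CHOP, was at 226 and 236 FPKM with the suffix, against 39.4 and 148 FPKM without it. The groups did not overlap, but the ratio was 5.72 in stem CT26_102 and 1.59 in stem CT26_CTL, and the log2 difference of 1.58 ± 0.42 did not pass (adjusted p = 0.0677). With genes required to reach 1 FPKM in all 4 libraries, Ddit3 did pass (adjusted p = 0.0463). Of its exonic bases 4.0% are shared with Mars on the opposite strand, and no source used here says whether reads were counted by strand. Atf4 itself was at 114 and 163 FPKM, against 101 and 318 FPKM, so that its stems went opposite ways (adjusted p = 0.336). Trib3, a pseudokinase that restrains ATF4, was at 46.4 and 45.2 FPKM, against 40.6 and 94.2 FPKM (adjusted p = 0.343). Chac1, which degrades glutathione, was at 15.0 and 44.0 FPKM, against 16.2 and 97.6 FPKM (adjusted p = 0.158). The other 6, Atf5, Cebpb, Cebpg, Nupr1, Eif2ak3 and Eif2ak4, had log2 differences between -0.31 and 0.55 and did not pass.

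Of the 7 transporters 1 fell, a single gene, against 5.32% of all tested genes that fell. Of the 6 tRNA synthetases 0 passed in limma, against 12.9% of all tested genes that passed in either direction. Among the 6, 1, Nars, had an unadjusted p under 0.05. Slc1a5, which imports glutamine and other neutral amino acids, was at 34.8 and 26.9 FPKM, against 62.8 and 76.1 FPKM (log2 difference -1.15 ± 0.18, adjusted p = 0.0311). Both libraries with the suffix lay below both others. Slc7a5, the importer of large neutral amino acids, was at 39.6 and 27.4 FPKM, against 46.2 and 69.0 FPKM (adjusted p = 0.114). Its ratio was 0.856 in stem CT26_102 and 0.398 in stem CT26_CTL. Slc3a2, its heavy chain partner, was at 64.7 and 72.4 FPKM, against 46.7 and 87.9 FPKM (adjusted p = 0.763). The remaining transporters, Slc7a1, Slc7a3, Slc1a4 and Slc38a2, had log2 differences between -0.67 and 0.59. Those of the synthetases ran from -0.54 in Nars to 0.40 in Yars. Vldlr, a lipoprotein receptor, was at 17.0 and 17.7 FPKM, against 23.8 and 24.5 FPKM (adjusted p = 0.0709).

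**Figure D3:**
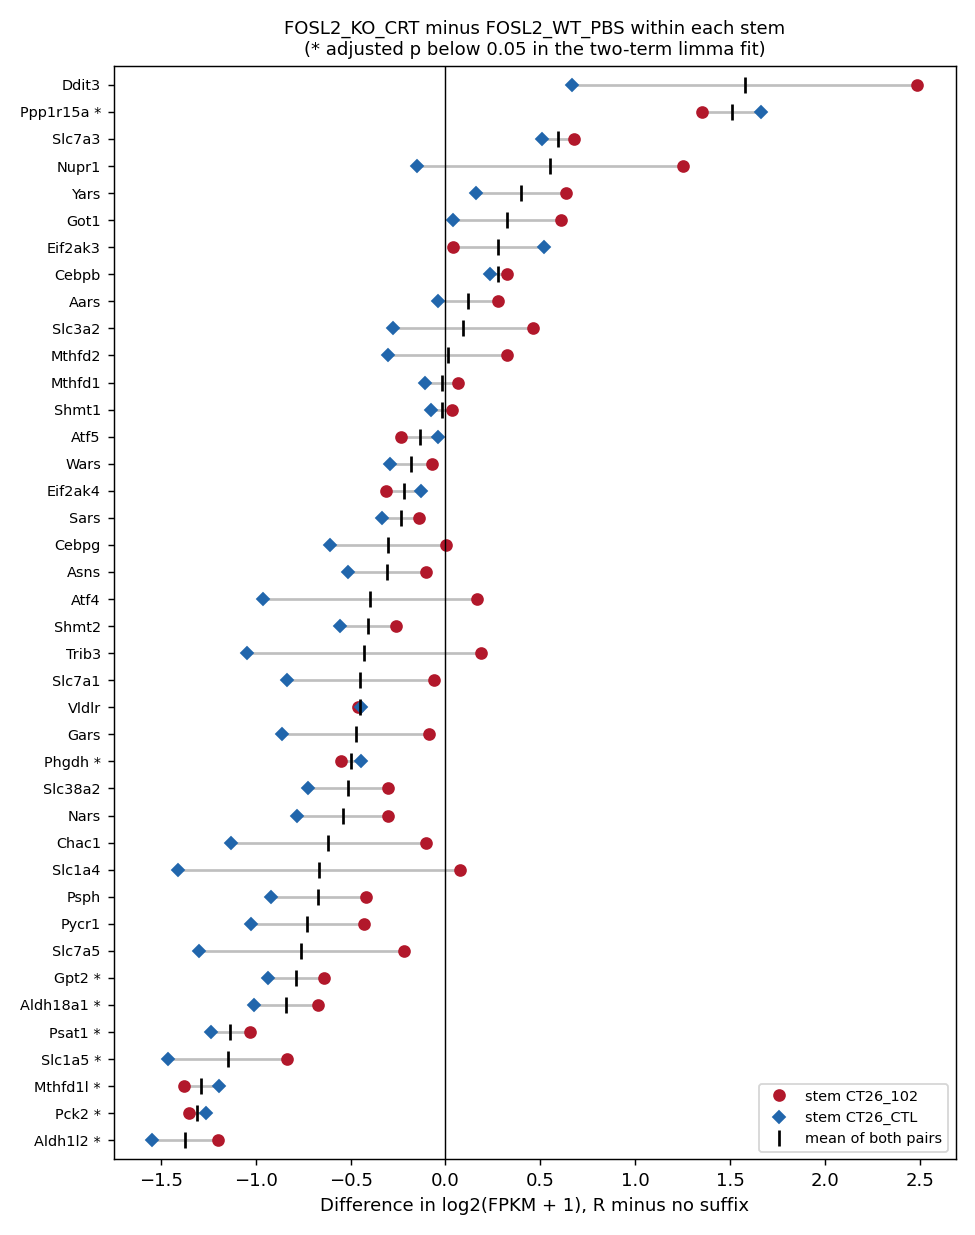
Difference in log2(FPKM + 1) between the library with suffix R and the one without, for the 40 tested members, in stem CT26_102 (red circles) and stem CT26_CTL (blue diamonds). The bar marks the mean of both and an asterisk an adjusted p below 0.05. Ppp1r15a stands at 1.35 and 1.67, and Pck2 at -1.35 and -1.26.

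Counts of members that do not overlap between the labelled groups add the background to these calls. Both libraries with suffix R lay below both others for 15 of 40 members, against 21.1% of all tested genes, and above both others for 3, against 22.3%. The 3 were Ddit3, Ppp1r15a and Slc7a3, a transporter of basic amino acids at 1.62 and 1.51 FPKM, against 0.641 and 0.767 FPKM. Slc7a3 passed the filter only through the libraries with suffix R, so the filter itself fixed that its groups did not overlap. The median over the members was -0.09 within stem CT26_102 and -0.54 within stem CT26_CTL. Over stress factors it was 0.17 within stem CT26_102, the value that remains when either CT26_CTL library is left out, and -0.13 within stem CT26_CTL. Over enzymes it was -0.43 within stem CT26_102 and -0.92 within stem CT26_CTL.

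Between the stems, Atf4 and several of its targets among the members were lower in stem CT26_102, and 1 cytosolic folate enzyme was higher. With the labelled group as the second term, 11 of 40 members were lower, against 9.44% of all tested genes, and 1 was higher, against 12.5%. The 11 comprised 4 stress factors, 5 enzymes and 2 tRNA synthetases, and 0 transporters passed in limma, where 1, Slc3a2, had an unadjusted p under 0.05. The median log2 difference was -0.36 over the members, against 0.05 over all tested genes. Of 14 tested ATF4 and stress targets outside the members, 1 was lower and 1 higher (7.14% each), with a median of -0.08. With the stem alone in the fit, 0 members passed, against 0.284% of all tested genes, and 10 had an unadjusted p under 0.05. With no filter on level, 0 members passed and 22 had an unadjusted p under 0.05.

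Among the 40 tested members, Chac1 had the largest log2(FPKM + 1) difference between the stems. Chac1 (ENSMUSG00000027313, GRCm38 chromosome 2, 119351229 to 119354381, plus strand) was at 15.0 and 16.2 FPKM in CT26_102_R and CT26_102, against 44.0 and 97.6 FPKM in CT26_CTL_R and CT26_CTL. The log2 difference was -2.01 ± 0.26 (adjusted p = 0.0137). Ppp1r15a, which rose with suffix R, was lower in stem CT26_102, at 91.0 and 35.0 FPKM, against 257 and 80.3 FPKM (log2 difference -1.33 ± 0.13, adjusted p = 0.00792). Cebpb, a C/EBP factor that pairs with ATF4, was at 25.5 and 20.2 FPKM, against 42.8 and 36.2 FPKM (log2 difference -0.77 ± 0.12, adjusted p = 0.0193). Of its exonic bases 20.7% are shared with Tmem189 on the opposite strand, a gene at 10.6 and 7.52 FPKM, against 13.7 and 8.43 FPKM. The part of Tmem189 in the Cebpb difference was not tested. Atf4 (ENSMUSG00000042406, GRCm38 chromosome 15, 80255184 to 80257541, plus strand) was at 114 and 101 FPKM in stem CT26_102, against 163 and 318 FPKM in stem CT26_CTL. Both libraries of stem CT26_102 lay below both others, by 0.698 times with suffix R and 0.318 times without it. The log2 difference of -1.08 ± 0.27 lay just inside the threshold (adjusted p = 0.0486) and did not pass with a pseudocount of 0.1 or 5, or without the mean-variance trend. Nupr1, a small stress-induced nuclear protein, was at 22.6 and 8.91 FPKM, against 33.6 and 37.4 FPKM (adjusted p = 0.0558).

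Asns, Phgdh, Psph, Got1 and Aldh18a1 were the enzymes lower in stem CT26_102. Asns (ENSMUSG00000029752, GRCm38 chromosome 6, 7675169 to 7693254, minus strand), whose promoter is shown above, was at 74.5 and 80.04 FPKM, against 116 and 166 FPKM (log2 difference -0.83 ± 0.14, adjusted p = 0.0212). Phgdh was at 129 and 189 FPKM in stem CT26_102, against 227 and 309 FPKM in stem CT26_CTL, with a log2 difference of -0.76 ± 0.10 (adjusted p = 0.0136). For both genes the stems did not overlap. Psph stood at 7.64 and 10.5 FPKM, against 12.7 and 25.0 FPKM (log2 difference -0.92 ± 0.17, adjusted p = 0.0261). However, 10.4% of its exonic bases are shared with Cct6a on the opposite strand. Cct6a was far higher, at 113 and 116 FPKM in stem CT26_102, against 143 and 163 FPKM in stem CT26_CTL. The part of Cct6a in the Psph difference was not tested. Got1 stood at 56.2 and 36.6 FPKM, against 86.3 and 83.8 FPKM (adjusted p = 0.0270). Aldh18a1 had a log2 difference of -0.76 ± 0.14 (adjusted p = 0.0270), and its libraries overlapped between stems. Mthfd1, the cytosolic folate enzyme that feeds purine synthesis, was the member that was higher, at 42.5 and 40.5 FPKM, against 22.5 and 24.3 FPKM (log2 difference 0.80 ± 0.13, adjusted p = 0.0188). The 4 enzymes with the largest falls between the labelled groups did not pass here. They were Aldh1l2 (adjusted p = 0.0566), Pck2 (0.120), Mthfd1l (0.113) and Psat1 (0.140). Mthfd2 was at 52.0 and 41.3 FPKM, against 65.8 and 81.3 FPKM, and did not pass (adjusted p = 0.0604).

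Of the tRNA synthetases, Nars and Sars were lower in stem CT26_102. Nars, which charges the tRNA for asparagine, was at 43.9 and 54.3 FPKM, against 69.1 and 119 FPKM (log2 difference -0.88 ± 0.15, adjusted p = 0.0234). Sars, which charges that for serine, was at 86.7 and 95.5 FPKM, against 117 and 147 FPKM (log2 difference -0.52 ± 0.11, adjusted p = 0.0358). Sars did not pass without the mean-variance trend (adjusted p = 0.0577). In both Nars and Sars, the stems did not overlap. The other 4, Aars, Gars, Wars and Yars, had log2 differences between -0.58 and 0.20, and those of the transporters lay between -0.53 and 0.34. Without overlap between stems, 16 of 40 members were lower in stem CT26_102, against 20.9% of all tested genes, and 4 were higher, against 28.0%. The 4 were Mthfd1, Wars and the kinase genes Eif2ak3 and Eif2ak4, of which Eif2ak3 was at 5.97 and 5.79 FPKM, against 5.20 and 3.32 FPKM. The median over the members was -0.19 between the libraries with suffix R and -0.70 between those without it. Mitochondrially encoded genes took 12.3% and 12.0% of total FPKM in CT26_102_R and CT26_102, against 9.09% and 9.37% in CT26_CTL_R and CT26_CTL. The summed FPKM of 6 fibroblast markers was 57.7 and 125, against 23.2 and 28.9, with Lum at 0 in all 4 libraries. The part of these differences in the results was not tested.

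**Figure D4:**
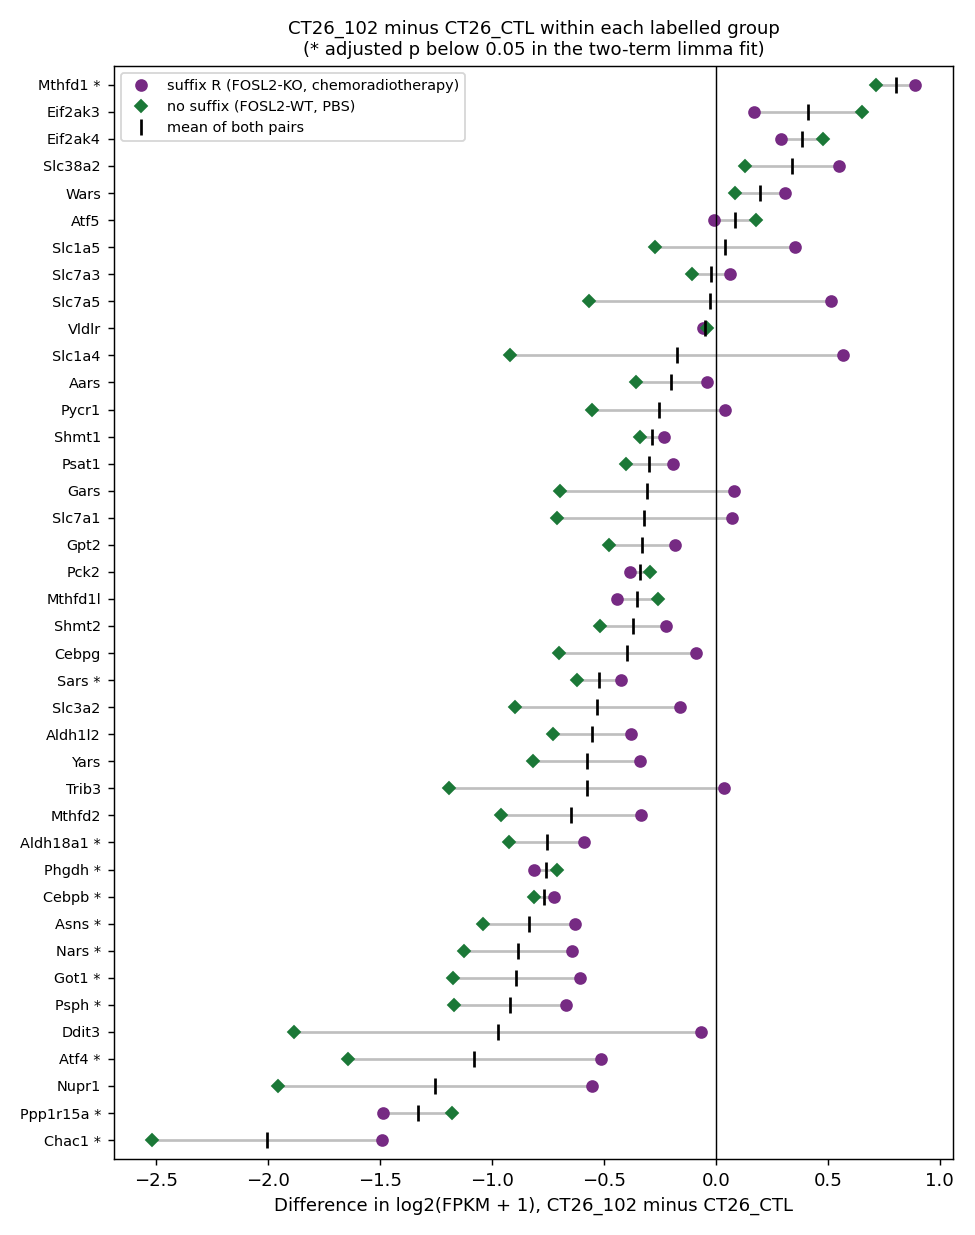
Difference in log2(FPKM + 1) between CT26_102 and CT26_CTL for the 40 tested members, among libraries with suffix R (purple circles) and without it (green diamonds). The bar marks the mean of both and an asterisk an adjusted p below 0.05. Chac1 stands at -1.49 and -2.52, and Mthfd1 at 0.89 and 0.72.

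Further genes of the pathway came from 8 lists that leave out the members. Of 14 other ATF4 and stress targets that were tested, 5 rose and 0 fell with suffix R, where 7.57% of all tested genes rose and 5.32% fell. Bbc3, the death gene PUMA, was at 33.9 and 53.5 FPKM with suffix R, against 10.0 and 13.2 FPKM without it (log2 difference 1.80 ± 0.14, adjusted p = 0.0143). Sesn2, which restrains mTORC1, was at 71.7 and 51.3 FPKM, against 24.3 and 26.9 FPKM. Ddit4, likewise an inhibitor of mTORC1, was at 85.7 and 78.9 FPKM, against 34.5 and 36.7 FPKM. Bbc3 and Sesn2 are also known targets of p53. Of 14 other cytosolic tRNA synthetases 3 fell (21.4%), and Vars was at 22.3 and 24.2 FPKM, against 46.2 and 50.8 FPKM. Among 16 mitochondrial synthetases 2 fell (12.5%), of which Iars2 was at 6.88 and 3.78 FPKM, against 17.1 and 10.1 FPKM. Of 19 genes of amino acid metabolism 2 rose (10.5%) and 3 fell (15.8%). Gss, glutathione synthetase, rose to 14.3 and 16.7 FPKM, against 5.13 and 5.37 FPKM, and Mat2a, which makes S-adenosylmethionine, fell to 13.3 and 9.83 FPKM, against 25.0 and 17.0 FPKM. In limma 0 of 13 genes of the eIF2 kinases, phosphatases and eIF2B passed in this comparison (6 at an unadjusted p under 0.05), as did 0 of 9 further transporters (2 at an unadjusted p under 0.05).

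Between the stems, several but not all chaperone genes of the endoplasmic reticulum were higher in stem CT26_102. The 19 genes of the ATF6 and XBP1 arms are the sensors and transcription factors Atf6, Ern1 and Xbp1 and, for the rest, mainly chaperones and degradation factors of the endoplasmic reticulum. Of these, 11 were higher and 0 lower in stem CT26_102, against 12.5% higher and 9.44% lower over all tested genes. The median log2 difference of the list was 0.85. The other 8, Atf6, Ern1, Xbp1, Hspa5, Dnajb9, Dnajb11, Herpud1 and Manf, did not pass. Pdia4, a disulfide isomerase, was at 133 and 212 FPKM in CT26_102_R and CT26_102, against 63.2 and 92.5 FPKM in CT26_CTL_R and CT26_CTL (log2 difference 1.13 ± 0.11, adjusted p = 0.00784). Sel1l, of the degradation complex, was at 16.9 and 20.4 FPKM, against 7.66 and 8.09 FPKM, and the co-chaperone Dnajc3 at 32.9 and 43.01 FPKM, against 16.8 and 17.6 FPKM. Between the labelled groups, 4 of the 19 fell and 0 rose, against 5.32% and 7.57% of all tested genes. Among them Xbp1 was at 5.38 and 2.79 FPKM with suffix R, against 9.90 and 11.07 FPKM without it, and Hsp90b1 at 454 and 239 FPKM, against 775 and 416 FPKM. Among 22 folate and purine genes 5 were higher (22.7%) and 2 lower (9.09%) in stem CT26_102, where Ggh, which trims folate chains, was at 2.57 and 2.50 FPKM and listed at 0 in both CT26_CTL libraries. Tyms, which makes thymidylate, was lower, at 4.87 and 5.41 FPKM, against 13.1 and 9.24 FPKM. Of 14 other cytosolic synthetases 1 was lower between stems, a share below the 9.44% of all tested genes. It was Cars, at 27.6 and 24.6 FPKM, against 49.8 and 56.4 FPKM. Of 9 further transporters 2 were higher and 1 lower. Slc6a6, the taurine transporter, was higher, at 27.7 and 29.0 FPKM, against 11.6 and 13.7 FPKM, as was Slc7a7, of cationic amino acid transport, at 1.83 and 1.34 FPKM, against 0.459 and 0.213 FPKM. Slc1a2, a glutamate transporter, was lower, at 0.0582 and 0.00704 FPKM, against 4.76 and 5.28 FPKM. Ggh, Slc7a7 and Slc1a2 each passed the filter only through the stem where their level is high. The filter itself thus fixed the direction of these genes, which the counts of their lists include. Of 13 genes of the eIF2 kinases, phosphatases and eIF2B, 2 were higher (15.4%), Eif2s3x and Gcn1l1, and 0 lower. Among 16 mitochondrial synthetases 2 were higher (12.5%) and 1 lower (6.25%). Of 19 genes of amino acid metabolism 2 were higher (10.5%) and 3 lower (15.8%). The difference between these lists and the members was not tested.

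**Figure D5:**
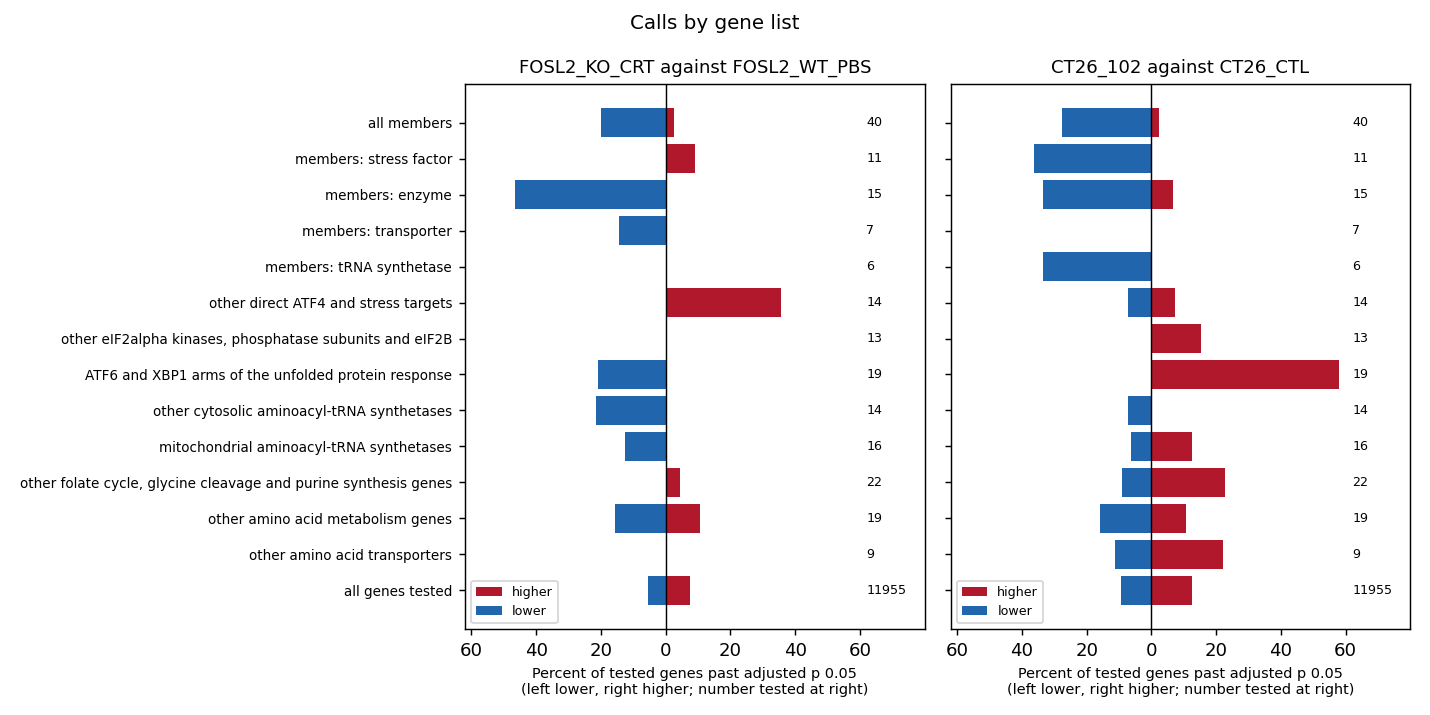
Percent of tested genes past the adjusted threshold in each list, higher to the right and lower to the left, for the labelled groups (left panel) and the stems (right panel), with the number tested at the right edge. All tested genes form the bottom row. The list of the ATF6 and XBP1 arms reaches 57.9% higher in stem CT26_102.

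Of the 43 members, 3 were not tested, because their levels were low. Cth, the enzyme that releases cysteine in transsulfuration, was at 0.329 and 1.48 FPKM in CT26_102_R and CT26_CTL_R, against 0.0284 and 0.917 FPKM in CT26_102 and CT26_CTL. Cbs, the step before it, was at most 0.0981 FPKM. Stc2, a secreted glycoprotein, was at 0.904 and 1.04 FPKM in CT26_102_R and CT26_102, against 0.0893 and 0.237 FPKM in CT26_CTL_R and CT26_CTL.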

How the data were processed

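Libraries were prepared from total RNA with a SMARTER kit, per the labels' protocols. The values analysed are the authors' deposited FPKM, 1 value per gene in each library. The submitters' processing notes name the builds GRCm38 and mm10; aligner, counter and strandedness: not given in the sources used here. GENCODE M21 supplied positions and exonic lengths (55154 of 55335 identifiers matched). Depth was sought between 10 and 30 M reads as the value at which the largest share of low FPKM became whole reads. Between 36.0% and 37.4% did so within 0.02 reads, so no counts were recovered and no count intervals are given.

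Genes with FPKM of at least 1 in at least 2 of 4 libraries (11955) were analysed as log2(FPKM + 1), a scale that understates changes of low genes. limma 3.58.1 in R 4.3.3 (lmFit, eBayes with a mean-variance trend) fitted labelled group and title stem together. This left 1 residual degree of freedom, the disagreement between the matched pairs, and 4.01 were added by the prior. Two-sided p-values were adjusted after Benjamini and Hochberg across these genes, and 0.05 was the threshold. The words rose and fell, and higher and lower in counts, refer to genes past it. An exact permutation test of 2 libraries against 2 cannot go below p = 0.333, so none was run. The fit was tested on simulated data. Members, roles and lists were chosen with earlier results of these data known, and no list was tested as a set. Every member may be named, those past the threshold with full values, as may Atf4, Ddit3, Asns, Phgdh and Mthfd2, and up to 3 passing genes of each further list. For the ATF6 and XBP1 arms, the genes that did not pass between stems are named too. Promoter sequences are RefSeq's (GRCm38.p6). Alternatives were other pseudocounts, filters, scalings and terms, and leaving out each library.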

Additional observations from a re-analysis of the deposited data

Results flagged for a closer look

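The results below went opposite ways in the matched pairs of a comparison, by at least 0.05 log2 units in each. This was seen for 7 of 40 members between the labelled groups, against 14.9% of all tested genes, and for 6 of 40 between the stems, against 15.4%. With 1 library per cell of the design, the difference between pairs was not tested.

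Between the library with suffix R and the one without, the log2 difference of Atf4 was 0.17 in stem CT26_102 and -0.96 in stem CT26_CTL. Trib3 stood at 0.19 in stem CT26_102 and -1.04 in stem CT26_CTL, Nupr1 at 1.25 and -0.15, and Mthfd2 at 0.32 and -0.30. Slc1a4, a transporter of small neutral amino acids, stood at 0.08 and -1.41, Slc3a2 at 0.46 and -0.28, and Mthfd1 at 0.07 and -0.11.

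Between CT26_102 and CT26_CTL, Slc7a5 stood at 0.51 among libraries with suffix R and -0.57 among those without it. Slc1a4 stood at 0.57 with the suffix and -0.92 without it, Slc1a5 at 0.36 and -0.27, Slc7a1 at 0.07 and -0.71, Slc7a3 at 0.06 and -0.11, and Gars at 0.08 and -0.70. Of these 6 genes, 5 encode transporters.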

How the results depend on the processing

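With no replicate block, that is with the tested division alone in the fit, 0 members were higher and 0 lower in either comparison, and over all genes 0 were higher and 1 lower between the labelled groups and 28 and 6 between stems. With no expression filter 0 members and 0 of all genes passed in either direction and comparison. Upper-quartile rescaling gave 13 members lower between the labelled groups (8 as reported), and the filter of 1 FPKM in all 4 libraries gave 2 higher (1 as reported). Over all genes, 905 were higher and 636 lower between the labelled groups. A pseudocount of 5 gave 416 lower, and upper-quartile rescaling gave 937 higher and 1011 lower. Between stems the split of 1494 higher and 1129 lower became 1190 and 1312 with median-of-ratios rescaling, and 1048 and 1200 with the length trend removed. The cause of these shifts was not tested. All 9 members that passed between the labelled groups also passed with either other pseudocount, either rescaling, the stricter filter and the length trend removed (chosen after seeing the data), and 8 without the mean-variance trend.

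The replicate numbers follow accession order, and the pairing comes from the title stem. Leaving out 1 library with both terms kept leaves no residual degree of freedom, so these are values with no test. The median of stress factors then ran from -0.13 to 0.17 between the labelled groups and that of enzymes from -0.55 to -0.38 between stems, where the removed length trend gave -0.56. Between stems the median of stress factors ran more widely, from -1.18 to -0.09. That of transporters ran from -0.57 to 0.36 between stems, and so changed sign. With the tested division alone and 1 library left out, 0 to 0 members passed, and over all genes 0 to 9 were higher and 1 to 3 lower between the labelled groups, and 0 to 13 and 0 to 3 between stems. These fits mix stem with group. In them the log2 difference between the labelled groups was 0.4248 for Atf4 without CT26_CTL (-0.40 as reported), and for Asns 0.0047 without CT26_102_R and 0.2116 without CT26_CTL (-0.31 as reported). For Mthfd2 (0.01 as reported) it was -0.4684 without CT26_102 and -0.1554 without CT26_CTL_R, and, with all 4 libraries, -0.049 with upper-quartile rescaling and -0.0452 with the length trend removed. Between stems, Ddit3 stood at 0.269 without CT26_102 (-0.97 as reported).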
